A study of Mus musculus with 12 samples.

Results

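Siglecs are sialic acid-binding lectins on the surface of immune cells, and 7 genes of the family were followed across myeloid cells of the mouse bone marrow: Siglec1, Cd22, Cd33, Siglece, Siglecf, Siglecg and Siglech. The genes were taken as a named family, with earlier results of these data known, and each symbol was matched to 1 of the 56953 genes in the deposited tables. All 7 had enough counts to be tested in every comparison. Siglecs read sialic acid, the sugar that caps glycans on the body's own cells. Most carry cytoplasmic motifs that recruit the phosphatases encoded by Ptpn6 and Ptpn11 and so dampen activation, while a few pair with the activating adaptor encoded by Tyrobp. Siglec1, also called sialoadhesin or CD169, is a long receptor without such motifs and is widely used as a marker of resident macrophages.

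Bulk RNA was sequenced from myeloid cells sorted from the bone marrow in 4 groups of 3 libraries. The mice were female, of the C57BL/6J strain and 8 weeks old. Per the study's methods the mice carried Rank cre/+ and R26.eYFP fl/+, so Cre made from the Rank locus switches on eYFP for good in cells of a lineage that once expressed it. The eYFP+ macrophages are thereby labelled as embryonic in origin and the eYFP- macrophages as derived from adult hematopoietic stem cells, a distinction that rests on how completely this 1 reporter marks the embryonic lineage. Macrophages were sorted as F4/80hi cells positive for CD206 and VCAM1, and Ly6Chi and Ly6Clo monocytes by the level of Ly6C. The labels name no drug or other treatment, and the sources do not say whether the monocytes came from the same mice as the macrophages. The sources do not state whether the 3 libraries of a group, or libraries that share a number, came from separate mice, so the p-values below measure only the spread between these libraries. In bulk RNA, fewer expressing cells and less RNA per cell cannot be told apart.

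Depth ran from 26390927 to 48618187 counts per library. The labels held against markers: the 8 macrophage markers summed to between 31419 and 47888 TPM in macrophages and between 486 and 1147 TPM in monocytes, and Ly6c2, which encodes Ly6C, stood at 5809 to 6963 TPM in Ly6Chi monocytes against at most 77.5 TPM elsewhere. TPM, transcript levels relative to all transcripts of a library, are counts per length scaled to the same sum in each library, so they can be set side by side between genes. Transcripts rich in GC were low in 2 libraries. Measured on 1071 such genes as the median log2 difference from the mean of the remaining pair in its group, Ly6Clo replicate 2 stood at -1.16, eYFP+ replicate 1 at -0.69 and the other 10 libraries between -0.06 and 0.60. Eosinophil granule transcripts were high in another 2, Prg2 reaching 917 TPM in eYFP- replicate 3 and 519 TPM in Ly6Clo replicate 3. Where leaving out either pair of libraries changed a call, the value without it is given beside the result.

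6 of the 7 genes lie on mouse chromosome 7, and Siglec1 lies on chromosome 2. The deposited tables were made on GRCm39 and hold no positions, so those given here are on GRCm38. There, Siglecf, Siglecg, Cd33 and Siglece fall within 309 kb of each other, whereas Cd22 sits beside Mag, the gene of the myelin-associated siglec, with 18.8 kb between them. Promoter windows of 300 bases, from 250 before to 50 after the start of the transcript, were held by RefSeq for 6 of the 7 genes (build GRCm38.p6). These neighbours show how far members of 1 cluster share sequence before their levels are compared. The longest run of identical bases in any of 15 pairs of windows was 16 bases, between Siglecf and Cd33, and occurred in only these 2 of 32851 windows (either strand). The other 14 pairs shared at most 10 bases in a row. Gene spans came from another annotation and for Cd33 and Cd22 reach 43544428 and 30880342, upstream of their windows. Which start these cells use was not tested. The run starts 27 bases before the Siglecf start and 157 bases before the Cd33 start and is in capitals here, in windows printed to 30 bases past the start.
Siglecf (chr7:43351091-43351370, plus strand): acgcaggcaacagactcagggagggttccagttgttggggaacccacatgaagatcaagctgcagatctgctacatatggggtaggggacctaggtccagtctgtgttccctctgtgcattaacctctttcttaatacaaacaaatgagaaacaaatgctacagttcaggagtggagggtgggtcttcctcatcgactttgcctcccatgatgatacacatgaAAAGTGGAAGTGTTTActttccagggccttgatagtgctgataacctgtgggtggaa
Cd33 (chr7:43533142-43533421, minus strand): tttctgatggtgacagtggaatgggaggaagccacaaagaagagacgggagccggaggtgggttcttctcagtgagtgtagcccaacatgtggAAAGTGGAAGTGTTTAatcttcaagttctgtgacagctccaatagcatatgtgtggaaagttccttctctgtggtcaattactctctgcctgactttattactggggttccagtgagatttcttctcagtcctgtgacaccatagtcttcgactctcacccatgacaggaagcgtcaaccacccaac

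Windows were also searched on both strands for GAGGAA, a purine-rich core of the kind bound by PU.1, the ETS factor of myeloid cells. It stood in 5 of the 7 windows of these 6 genes (Siglecg has a second start, whose window held none), beside 28.3% of all windows. The first window of Siglecg, the member lower in macrophages, held 2 copies, and Siglecf, Cd33 and Siglech held 1 each. Siglece held 3 copies, starting 87, 36 and 11 bases before its start, and 0.685% of all windows held 3 or more. Cd22 held none. Both are shown because they were among the genes higher in macrophages, and capitals mark the core, which here reads TTCCTC as it lies on the opposite strand. A match is a run of letters, not a site at which binding was measured.
Siglece (chr7:43660132-43660411, minus strand): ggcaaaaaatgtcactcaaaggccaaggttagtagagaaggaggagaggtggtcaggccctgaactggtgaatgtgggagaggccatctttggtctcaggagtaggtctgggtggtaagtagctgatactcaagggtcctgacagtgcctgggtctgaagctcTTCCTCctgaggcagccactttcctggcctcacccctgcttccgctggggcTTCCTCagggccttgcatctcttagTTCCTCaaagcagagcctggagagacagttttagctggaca
Cd22 (chr7:30878999-30879278, minus strand): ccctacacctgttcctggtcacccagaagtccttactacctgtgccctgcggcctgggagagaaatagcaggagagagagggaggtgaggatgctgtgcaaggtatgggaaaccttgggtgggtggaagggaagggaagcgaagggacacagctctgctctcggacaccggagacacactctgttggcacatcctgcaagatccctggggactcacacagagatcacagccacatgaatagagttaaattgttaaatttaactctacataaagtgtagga

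Taking both macrophage groups against both monocyte groups, 4 siglecs were higher in macrophages, Siglec1, Cd22, Siglece and Siglecf, and Siglecg was lower. Thus 5 of 7 passed the test, where 36% of all genes tested did (DESeq2, Benjamini-Hochberg adjusted p under 0.05). Their median log2 difference was 1.77, against 0.08 over all genes tested. The count was 5 without each library in turn, without the pair low in GC-rich transcripts and without the pair high in eosinophil transcripts. With edgeR it was 4, as Siglecf was at adjusted p = 0.0591. Markers of other cells moved with this comparison: all 6 erythroid markers were higher in macrophages, summing to 6939 to 28474 TPM against 274 to 1085 TPM in monocytes, and 5 of 8 neutrophil and precursor markers were lower, at 29.2 to 1254 TPM against 2719 to 7834 TPM. Their part in the siglec levels was not tested.

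**Figure D1:**
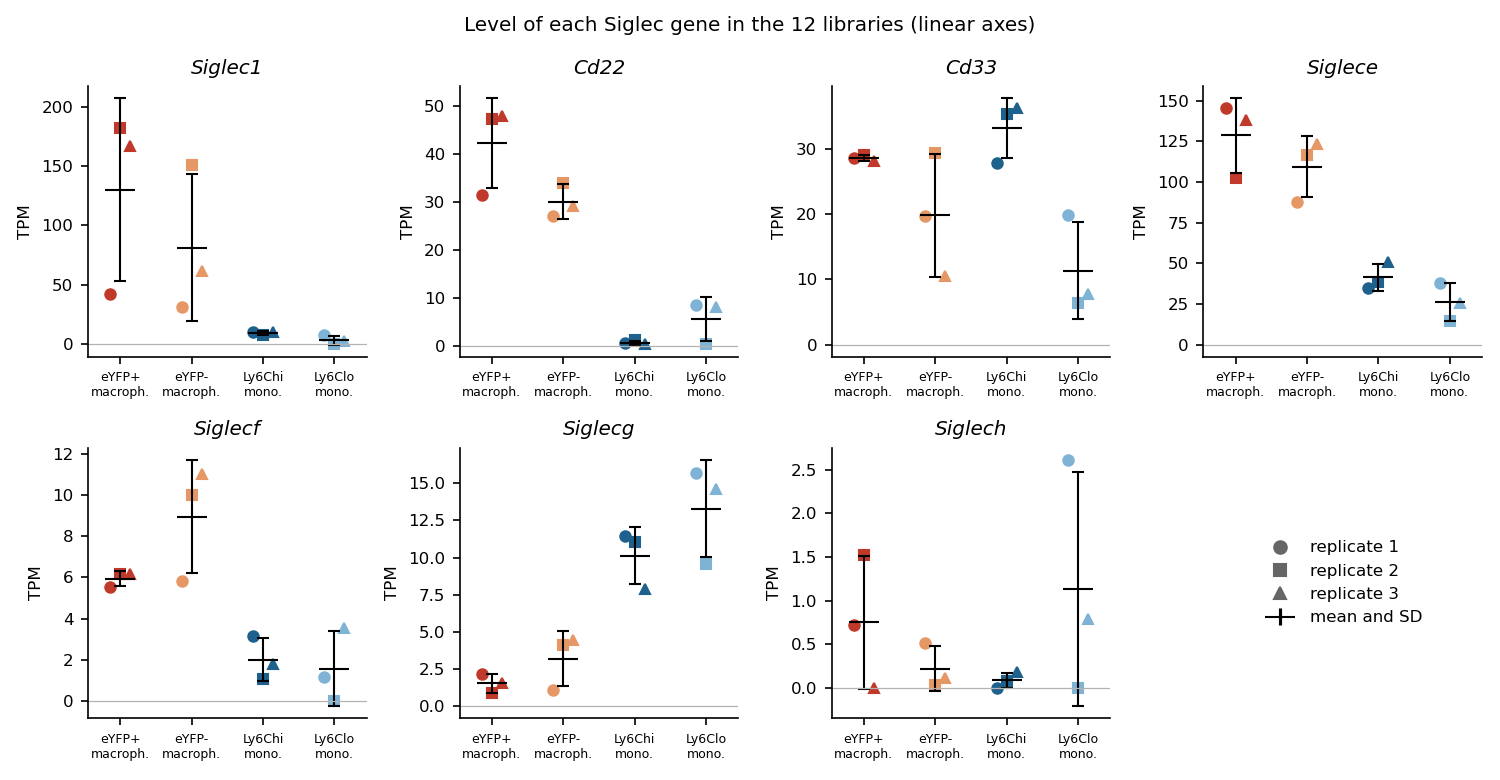
Level of each siglec gene in TPM (linear vertical axes that differ between panels) in eYFP+ macrophages, eYFP- macrophages, Ly6Chi and Ly6Clo monocytes; each point is 1 library and its shape the replicate number, and bars give the mean and SD of 3 libraries. Siglec1, Cd22 and Siglece sit higher in every macrophage library than in any monocyte library, Siglecg sits lower, and Cd33 overlaps.

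Siglec1 had 42.0, 182 and 167 TPM in eYFP+ macrophages (replicates 1 to 3) and 31.4, 151 and 61.5 TPM in eYFP- macrophages. In Ly6Chi monocytes it had 10.6, 7.34 and 10.2 TPM, and in Ly6Clo monocytes 7.65, 0.250 and 2.59 TPM. Every macrophage library exceeded every monocyte library, but levels differed several-fold among macrophage libraries, and in both macrophage groups replicate 1 was lowest and replicate 2 highest. The log2 difference between macrophages and monocytes was 4.04 ± 0.58 (SE), a 16.4-fold change (DESeq2 adjusted p = 6.35e-11). Siglec1 had the highest GC content of the 7, 56.7% in its longest transcript, above that of 88.5% of genes tested, and was lowest in its group in both libraries low in GC-rich transcripts among eYFP+ macrophages and Ly6Clo monocytes. Without those 2 libraries its difference was 3.92 (DESeq2 adjusted p = 2.55e-27), and with a correction for GC content and length 3.94. The part of GC content in the spread of its levels was not tested.

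Cd22 encodes the inhibitory co-receptor best known from B cells. It had 31.4, 47.3 and 47.9 TPM in eYFP+ macrophages and 27, 34 and 29.1 TPM in eYFP- macrophages. Ly6Clo monocytes had 8.47, 0.401 and 8.10 TPM, and Ly6Chi monocytes 0.502, 1.12 and 0.383 TPM. The macrophage libraries lay above all monocyte libraries, and 2 of 3 Ly6Clo libraries lay between them and the Ly6Chi libraries. The log2 difference between macrophages and monocytes was 4.10 ± 0.52 (SE), 17.2-fold (DESeq2 adjusted p = 4.07e-14).

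B cell markers were set beside Cd22. Of 8 such markers 1 rose in macrophages, where 20.7% of all genes did, and their median log2 difference was 1.23 against 0.08 over all genes. It was Cd79b, which encodes a signalling chain of the B cell receptor and stood at 449 to 701 TPM in macrophages against 28.1 to 136 TPM in monocytes (log2 difference 3.32 ± 0.30, DESeq2 adjusted p = 8.39e-27). The list summed to between 457 and 701 TPM in macrophages, 28.4 to 34.9 TPM in Ly6Chi and 54.1 to 140 TPM in Ly6Clo monocytes, nearly all of it Cd79b. Defining markers were near 0: Ms4a1, which encodes CD20, was at most 0.951 TPM and the B lineage factor Pax5 at most 0.0537 TPM in any macrophage library. The eYFP- replicate 2 library held the most Ms4a1 and Cd79a (4.55 TPM), and its Cd22 level was the highest of its group. Cd79a was nearly as high in Ly6Clo monocytes (3.68, 3.96 and 4.35 TPM), where replicate 2 had 0.401 TPM of Cd22. The part of B cell transcripts in the Cd22 level was not tested.

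Mag, the neighbour of Cd22 and a siglec known from myelinating glia, had 25.2, 28.8 and 27.3 TPM in eYFP+ and 13.7, 23.8 and 16.3 TPM in eYFP- macrophages. Monocytes had between 0.301 and 2.52 TPM. The macrophage libraries were all above the monocyte libraries, with a log2 difference of 4.11 ± 0.40 (SE; DESeq2 adjusted p = 1.61e-23), close in size to that of Cd22.

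Siglece, the main inhibitory CD33-related siglec of mouse myeloid cells, had 145, 103 and 138 TPM in eYFP+ macrophages and 88.0, 117 and 124 TPM in eYFP- macrophages. Ly6Chi monocytes had 34.9, 38.5 and 50.7 TPM and Ly6Clo monocytes 37.9, 14.8 and 25.5 TPM. No monocyte library reached the lowest macrophage library, and the log2 difference was 1.77 ± 0.25 (SE), or 3.40-fold (DESeq2 adjusted p = 3.48e-11).

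Siglecf, the eosinophil and alveolar macrophage siglec, was a minor member. It had 5.53, 6.14 and 6.14 TPM in eYFP+ macrophages and 5.82, 10.01 and 11.0 TPM in eYFP- macrophages, against 3.16, 1.08 and 1.77 TPM in Ly6Chi and 1.14, 0 and 3.56 TPM in Ly6Clo monocytes. The macrophage libraries lay above the monocyte libraries without overlap. The log2 difference was 1.94 ± 0.67 (SE), 3.83-fold (DESeq2 adjusted p = 0.0130). The 0 in Ly6Clo replicate 2 allows up to 3 counts of 26390927, a limit that covers counting error only.

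Eosinophil markers stood beside it. The 2 libraries with the most Prg2 were also those with the highest Siglecf of their group. Of the 5 eosinophil markers tested, 1 rose in macrophages: Ccr3, the eotaxin receptor gene, at 613 to 1167 TPM in macrophages and at most 8.29 TPM in monocytes. For eYFP- macrophages against Ly6Chi monocytes alone, 4 of the 5 rose, where 15.1% of all genes did. The 6 markers summed to between 785 and 1176 TPM in eYFP+ and between 702 and 1629 TPM in eYFP- macrophages, between 0.480 and 1.64 TPM in Ly6Chi and between 6.43 and 591 TPM in Ly6Clo monocytes. The granule gene Prg2 had 103, 68.4 and 917 TPM in eYFP- macrophages, 5.96, 2.28 and 4.47 TPM in eYFP+ macrophages and at most 0.780 TPM in 5 of 6 monocyte libraries. Epx, Prg3 and Ear6 were at most 1.05 TPM in eYFP+ macrophages. The part of eosinophil transcripts in the Siglecf level was not tested. Without the 2 libraries high in eosinophil transcripts the Siglecf difference was 2.60 (DESeq2 adjusted p = 0.000900). 

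**Figure D2:**
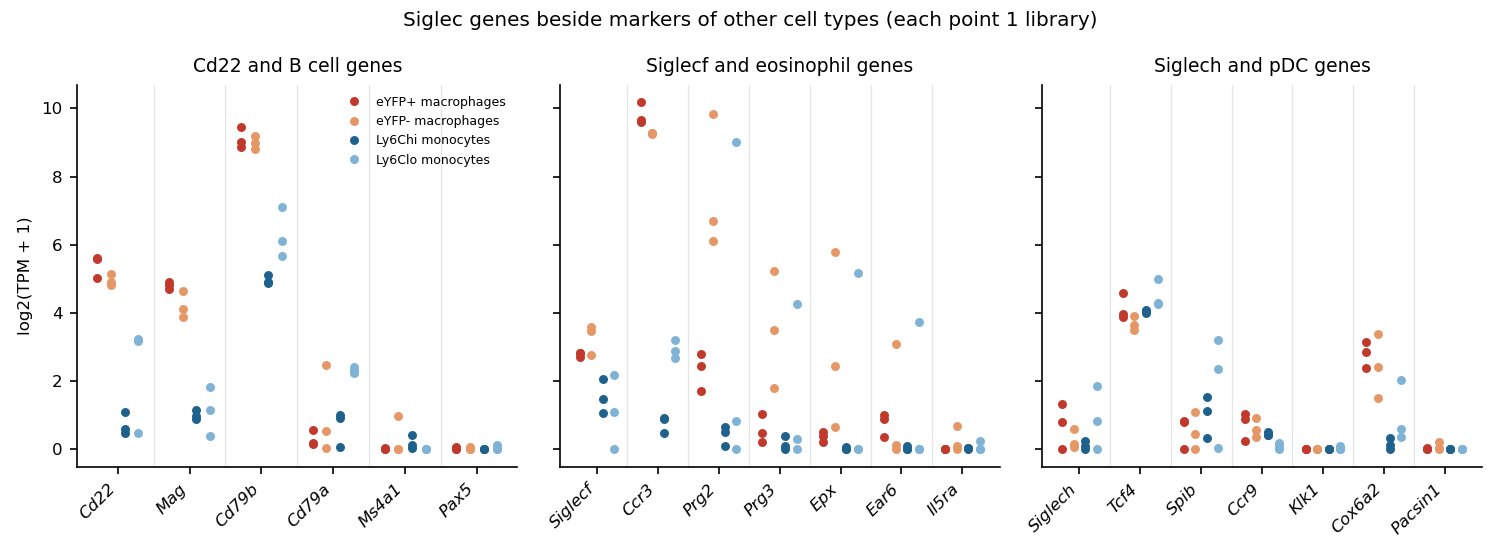
Cd22, Siglecf and Siglech beside genes of B cells, eosinophils and plasmacytoid dendritic cells (pDC), as log2(TPM + 1) in each of 12 libraries, coloured by group. Cd79b and Ccr3 are high in all 6 macrophage libraries while Ms4a1 and Pax5 stay near 0, and Prg2, at 68.4 to 917 TPM in the eYFP- libraries, reaches 519 TPM in 1 of 3 Ly6Clo libraries.

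Siglecg, a CD33-related siglec with an inhibitory role known from B1 cells, was the member that was lower in macrophages. Ly6Clo monocytes had 15.7, 9.55 and 14.6 TPM and Ly6Chi monocytes 11.5, 11.0 and 7.90 TPM. In eYFP- macrophages it had 1.05, 4.08 and 4.44 TPM, and in eYFP+ macrophages 2.17, 0.879 and 1.57 TPM. All monocyte libraries lay above all macrophage libraries, and in macrophages the log2 level fell by 2.49 ± 0.36 (SE), 5.61-fold (DESeq2 adjusted p = 1.18e-10).

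Cd33 did not separate macrophages from monocytes. In the mouse its product lacks the usual inhibitory motif and can pair with the adaptor encoded by Tyrobp. It had 28.6, 29.1 and 28.2 TPM in eYFP+ and 19.7, 29.4 and 10.5 TPM in eYFP- macrophages. Levels were 27.9, 35.5 and 36.3 TPM in Ly6Chi and 19.9, 6.43 and 7.73 TPM in Ly6Clo monocytes, so that both cell types covered nearly the same range. The log2 difference was 0.20 ± 0.32 (SE; DESeq2 adjusted p = 0.678), with a 95% interval from -0.42 to 0.83, and without the 2 libraries low in GC-rich transcripts it was -0.0069.

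Siglech, known as a marker of plasmacytoid dendritic cells, was the member with the fewest reads, with 0 to 138 counts per library. Ly6Clo monocytes had 2.61, 0 and 0.785 TPM and eYFP+ macrophages 0.724, 1.53 and 0 TPM. In eYFP- macrophages it had 0.512, 0.0374 and 0.114 TPM and in Ly6Chi monocytes 0, 0.0765 and 0.178 TPM. Each group overlapped the others, and with a log2 difference of 0.38 ± 1.21 (SE; DESeq2 adjusted p = 0.847) no change between macrophages and monocytes was detectable at this depth. Each count of 0 allows at most 3 counts, or 0.0617 to 0.114 per 1000000 counts in the 3 libraries concerned. The pDC genes Klk1 and Pacsin1 were at most 0.160 TPM in any library, while Tcf4 and Irf7, which other myeloid cells also express, were present in all. Spib, a transcription factor gene of pDC and B cells, had 8.22, 0.0220 and 4.08 TPM in Ly6Clo monocytes, the same order of libraries as Siglech. Other pDC markers had another order there, Tcf4 with 18.3, 31.1 and 18.4 TPM and Cox6a2 with 0.513, 3.07 and 0.287 TPM. Of 6 pDC markers tested, Cox6a2 (1.86 to 9.36 TPM in macrophages) and Ccr9 were higher and none was lower in macrophages (DESeq2). The part of such cells in the Siglech level was not tested. The 8 pDC markers summed to 173 to 396 TPM in eYFP+ and 377 to 395 TPM in eYFP- macrophages, 482 to 744 TPM in Ly6Chi and 152 to 273 TPM in Ly6Clo monocytes.

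Between eYFP+ and eYFP- macrophages no siglec passed the test, where 2.07% of all genes tested did. DESeq2, edgeR and limma on log2(TPM + 1) each called 0 of the 7, and at an unadjusted p under 0.05 each had 0 as well. Siglec1 was 0.73 ± 0.82 (SE) higher on the log2 scale in eYFP+ macrophages, Cd22 0.52 ± 0.73, Cd33 0.58 ± 0.45 and Siglece 0.29 ± 0.36. The 95% intervals ran from -0.88 to 2.35 for Siglec1 and from -0.41 to 0.98 for Siglece, so that the interval was wider for Siglec1 than for Siglece. Siglecg had the lowest p of the 7, 0.0667 before and 0.648 after adjustment by DESeq2, at a log2 difference of -0.95 ± 0.52. Without the 2 libraries low in GC-rich transcripts it was at -1.40 (adjusted p = 0.0709) and Siglec1 at 1.13 (0.237). Levels of the 2 groups overlapped for all 7 genes.

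Cd33 was even among the eYFP+ libraries, from 28.2 to 29.1 TPM, and ran from 10.5 to 29.4 TPM among the eYFP- libraries. Siglec1 and Cd22 each had more TPM in the eYFP+ library than in the eYFP- library of that number, 3 times of 3, and Siglecf had less, 3 times of 3. Siglecg had more 1 time of 3, and Cd33, Siglece and Siglech 2 times of 3. These counts were not tested, and the sources do not say that libraries of 1 number share a mouse. With the replicate number as a block, no siglec passed either.

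**Figure D3:**
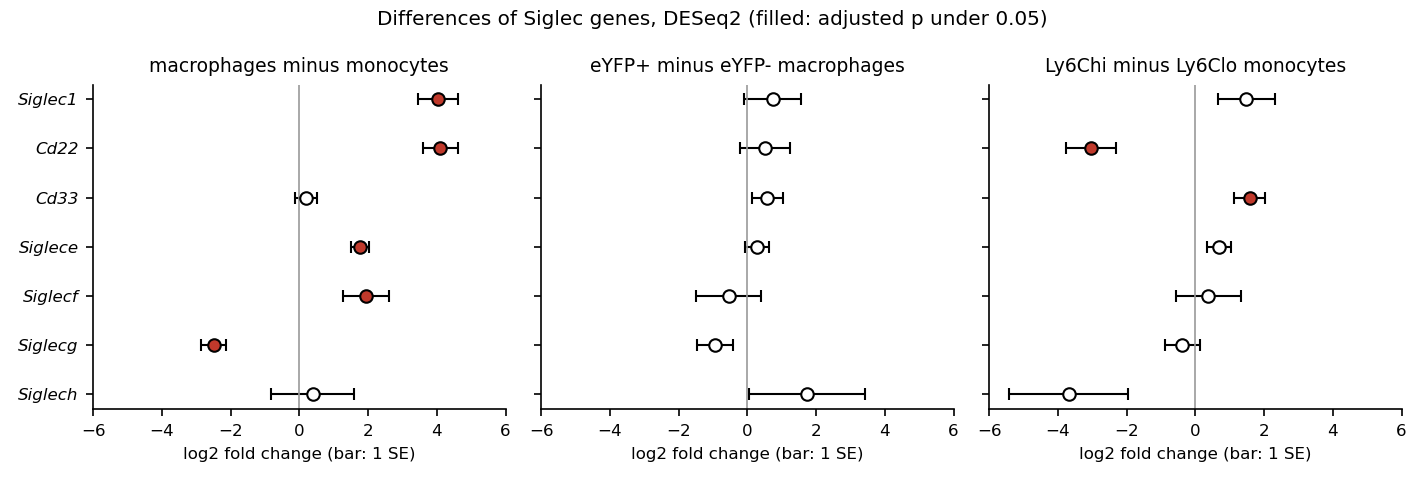
Log2 fold change (horizontal axes, bars 1 SE) of the 7 siglec genes in 3 comparisons, from DESeq2 on 12 libraries; filled points have an adjusted p under 0.05. Of the 7, 5 are filled for macrophages minus monocytes, 0 for eYFP+ minus eYFP- macrophages and 2 for Ly6Chi minus Ly6Clo monocytes.

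The monocyte subsets differed in 2 siglecs, Cd33, which was higher in Ly6Chi monocytes, and Cd22, which was lower, and 8.82% of all genes tested passed here. The log2 difference of Cd33 was 1.58 ± 0.45 (SE), 2.997-fold (DESeq2 adjusted p = 0.00921), and its lowest Ly6Chi library (27.9 TPM) was above its highest Ly6Clo library (19.9 TPM). For Cd22 it was -3.04 ± 0.74 (SE), 8.24-fold (DESeq2 adjusted p = 0.00114), although Ly6Clo replicate 2 (0.401 TPM) fell within the Ly6Chi range. Without that library and eYFP+ replicate 1 the Cd22 difference was -3.59 (DESeq2 adjusted p = 1.85e-23). Markers of other cells moved with these groups: 7 of 8 macrophage markers, 3 of 5 eosinophil markers and 1 of 7 B cell markers tested (Cd79b) were lower in Ly6Chi monocytes, and of 8 neutrophil and precursor markers 3 were higher and 1 lower. Of 6 pDC markers tested, 2 were higher and 1 lower. Cd79a had 0.877, 0.0403 and 1.004 TPM in Ly6Chi and 3.68, 3.96 and 4.35 TPM in Ly6Clo monocytes. The summed levels were 486 to 561 TPM in Ly6Chi and 676 to 1147 TPM in Ly6Clo monocytes for the macrophage list, and their part in the Cd22 and Cd33 differences was not tested.

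Neither call held in edgeR, at differences of about the same size, -3.03 (adjusted p = 0.0591) for Cd22 and 1.61 (0.0579) for Cd33, where 3 of the 7 had an unadjusted p under 0.05. Cd22 also lost its call in limma, at -1.59 (adjusted p = 0.137) on log2(TPM + 1) and -2.21 (0.176) on log2(TPM + 0.1). Cd33 lost its call in DESeq2 without Ly6Clo replicate 3 (1.38, adjusted p = 0.0557), without Ly6Chi replicate 2 (1.54, 0.0623) and without Ly6Chi replicate 3 (1.51, 0.0653). Siglec1 stood 1.48 ± 0.83 (SE) higher in Ly6Chi monocytes (DESeq2 adjusted p = 0.297) and passed only without Ly6Clo replicate 1, at 2.71 (0.0165). Siglece differed by 0.69 ± 0.36 (adjusted p = 0.247) and Siglech by -3.68 ± 1.73 (0.188), where 1 Ly6Clo library had 138 counts and the other 5 monocyte libraries 0 to 37.

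Pairs of single groups, which share libraries with the comparisons above, gave an order for each gene by mean TPM. For eYFP+ macrophages against Ly6Chi monocytes 4 of 7 passed (28.7% of all genes tested), Siglec1, Cd22 and Siglece higher and Siglecg lower. Against Ly6Clo monocytes 5 of 7 passed (26.1%), the same genes and Cd33. For eYFP- macrophages 4 of 7 passed against Ly6Chi (25.5%) and 5 of 7 against Ly6Clo monocytes (26.8%), Siglecf being the fifth.

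Siglec1 ran from 130 ± 76.8 TPM (SD, n = 3) in eYFP+ macrophages through 81.2 ± 62.1 in eYFP- macrophages and 9.38 ± 1.77 in Ly6Chi to 3.50 ± 3.78 in Ly6Clo monocytes. Of these neighbours only eYFP- macrophages and Ly6Chi monocytes differed, by 2.93 on the log2 scale (DESeq2 adjusted p = 0.00263), and without eYFP- replicate 2 that fell to 2.24 (0.0522). This call held in 12 of 13 alternatives. Siglece followed the same order, 129 ± 22.9, 109.5 ± 18.9, 41.4 ± 8.27 and 26.1 ± 11.6 TPM, and again only the middle step passed, at 1.28 (0.00234). That step was at 1.17 (0.0532) without the 2 libraries high in eosinophil transcripts.

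Cd22 had another order, with Ly6Clo above Ly6Chi monocytes: 42.2 ± 9.36, 30.05 ± 3.59, 5.66 ± 4.56 and 0.669 ± 0.397 TPM (SD, n = 3). Its steps from eYFP- macrophages to Ly6Clo (2.32, DESeq2 adjusted p = 0.00789) and from Ly6Clo to Ly6Chi monocytes both passed in DESeq2 and neither in edgeR (adjusted p = 0.0510 and 0.0591), and that from eYFP+ to eYFP- macrophages did not. Siglecg was the reverse of Siglec1, at 13.3 ± 3.28 in Ly6Clo, 10.1 ± 1.94 in Ly6Chi monocytes, 3.19 ± 1.86 in eYFP- and 1.54 ± 0.644 TPM in eYFP+ macrophages, with 1 step that passed, between Ly6Chi monocytes and eYFP- macrophages (-1.82, adjusted p = 0.00265).

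Cd33 stood at 33.2 ± 4.61 in Ly6Chi monocytes, 28.6 ± 0.419 in eYFP+ macrophages, 19.9 ± 9.45 in eYFP- macrophages and 11.4 ± 7.44 TPM in Ly6Clo monocytes (SD, n = 3), and no neighbours in that order differed by DESeq2 on all libraries. With 1 library left out, its step from eYFP- macrophages to Ly6Clo monocytes passed 1 time of 6 (DESeq2 adjusted p = 0.0071). Its difference between eYFP+ macrophages and Ly6Clo monocytes (1.29, adjusted p = 0.0210) was lost without any 1 of 4 libraries, with adjusted p between 0.0620 and 0.103, without the pair low in GC-rich transcripts (0.91, 0.118) and without the pair high in eosinophil transcripts (1.09, 0.0773). The difference of Cd33 between eYFP- macrophages and Ly6Chi monocytes (-0.88, adjusted p = 0.151) passed without the pair low in GC-rich transcripts (-0.92, 0.0344). Siglecf stood at 8.96 ± 2.76 in eYFP- and 5.94 ± 0.355 in eYFP+ macrophages, 2.00 ± 1.06 in Ly6Chi and 1.56 ± 1.82 TPM in Ly6Clo monocytes, with no neighbours that differed by the test. Its call in eYFP- macrophages against Ly6Clo monocytes (2.40, adjusted p = 0.0435) was lost without any 1 of 4 libraries (2.18 to 2.59, adjusted p between 0.0756 and 0.156) and held without Ly6Clo replicate 2 (1.77, 0.00459) or Ly6Clo replicate 3 (3.90, 0.000234). Of 13 alternatives 8 kept this call, and DESeq2 with the GC and length correction did not (2.16, adjusted p = 0.0523). In eYFP+ macrophages against Ly6Clo monocytes Siglecf did not pass in DESeq2 (1.85, adjusted p = 0.141). It did pass without Ly6Clo replicate 3 (3.36, 0.00193), without the 2 libraries high in eosinophil transcripts (3.37, 0.00428) and in limma on log2(TPM + 1) (1.70, 0.0165). Against Ly6Chi monocytes it did not pass in the DESeq2 fit of all libraries in either macrophage group. Without the 2 libraries low in GC-rich transcripts it passed in both, at 1.41 (DESeq2 adjusted p = 0.0210) in eYFP+ and 1.98 (0.000130) in eYFP- macrophages. It also passed in both when DESeq2 was fitted on the libraries compared alone (1.42, 0.00385, and 1.97, 5.96e-06), and in eYFP- macrophages in limma on log2(TPM + 1) (1.75, 0.0136).

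The 7 genes together held 338 ± 71.8 TPM (SD, n = 3) in eYFP+ macrophages, 253 ± 86.5 in eYFP- macrophages, 96.9 ± 9.61 in Ly6Chi and 62.6 ± 30.98 in Ly6Clo monocytes. Siglece took a mean share of 40.04% to 45.3% of that sum in each group, though single libraries ran from 27.8% to 56.8%, both among the eYFP+ macrophages. Mean shares of other members were less even: Siglec1 took 36.2% in eYFP+ and 29.1% in eYFP- macrophages but 9.74% in Ly6Chi and 4.37% in Ly6Clo monocytes. Cd33 held 34.3% of the sum in Ly6Chi monocytes, and Siglecg 23.5% in Ly6Clo monocytes against 0.496% in eYFP+ macrophages. Cd22 made up 12.5% in both macrophage groups.

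**Figure D4:**
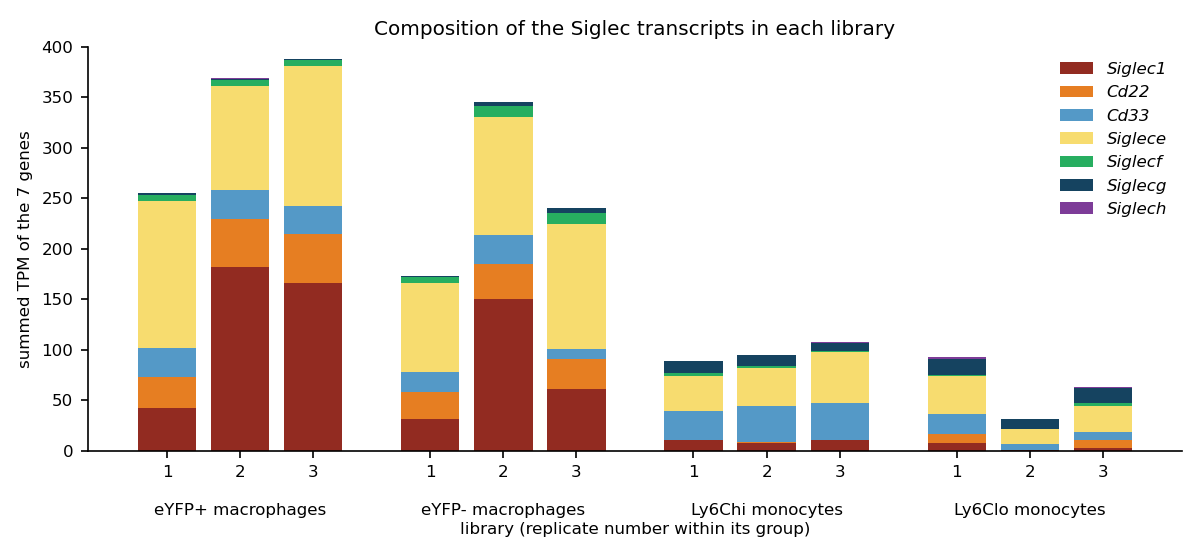
Summed TPM of the 7 siglec genes in each of 12 libraries, stacked by gene (vertical axis from 0, libraries numbered by replicate within their group). Siglece and Siglec1 form most of the macrophage bars, of 174 to 388 TPM, and Siglece, Cd33 and Siglecg most of the monocyte bars, of 31.4 to 107 TPM.

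Genes whose levels were most like a siglec were ranked by Pearson correlation over the 12 libraries, on the deposited variance-stabilised values of 10704 genes. These values describe libraries that share group and depth. Nearest to Siglec1 were Zbtb5 (0.993), Sall2 (0.989) and Sdc3 (0.989), the last encoding syndecan-3, and nearest to Cd22 were Pou6f1 (0.997), Sorbs3 and Fblim1 (both 0.988). Siglece was nearest to Fggy (0.981), Slc9a9 (0.980) and the antigen-presenting gene Mr1 (0.979), Siglecf to Pla2g16 (0.969), Tomm40l (0.958) and Akt2 (0.957), and Siglecg to Mapk13 (0.978), Rfx3 (0.971) and Slc36a3os (0.969). Cd33 had no gene above 0.896 (Rnf213, then Myof and Pld1 at 0.888 and 0.887). No gene exceeded 0.786 for Siglech.

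Signalling partners of siglecs were more often lower than higher in macrophages. Over all genes tested, 20.7% rose and 15.3% fell in macrophages against monocytes, the shares beside which the counts of the 5 lists that follow stand. Of 12 genes of siglec signalling, 1 rose and 6 fell, with a median log2 difference of -0.60 against 0.08 over all genes tested. The adaptor gene Grb2 rose (1.04 ± 0.19, SE; DESeq2 adjusted p = 2.27e-07). Ptpn6, which encodes the phosphatase SHP-1, fell by 0.61 ± 0.20 (adjusted p = 0.00822), and Ptpn11, which encodes SHP-2, by 1.14 ± 0.25 (4.77e-05). The activating adaptors fell too, Tyrobp by 0.60 ± 0.24 (0.0345) and Hcst by 0.99 ± 0.19 (1.82e-06), as did the Src family kinase Fgr (-1.07, 2.60e-10) and Socs3 (-2.86, 1.39e-07), a suppressor of cytokine signalling. Inpp5d, which encodes the phosphatase SHIP-1, was at -0.01 ± 0.33 (0.990). Tyrobp was still at 3109 to 5603 TPM in macrophages. Ly6Clo replicate 2, low in GC-rich transcripts, was below every macrophage library for Tyrobp (2865 TPM) and Ptpn6 (357 TPM). For Socs3 (1.76 TPM) it lay within the macrophage range.

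**Figure D5:**
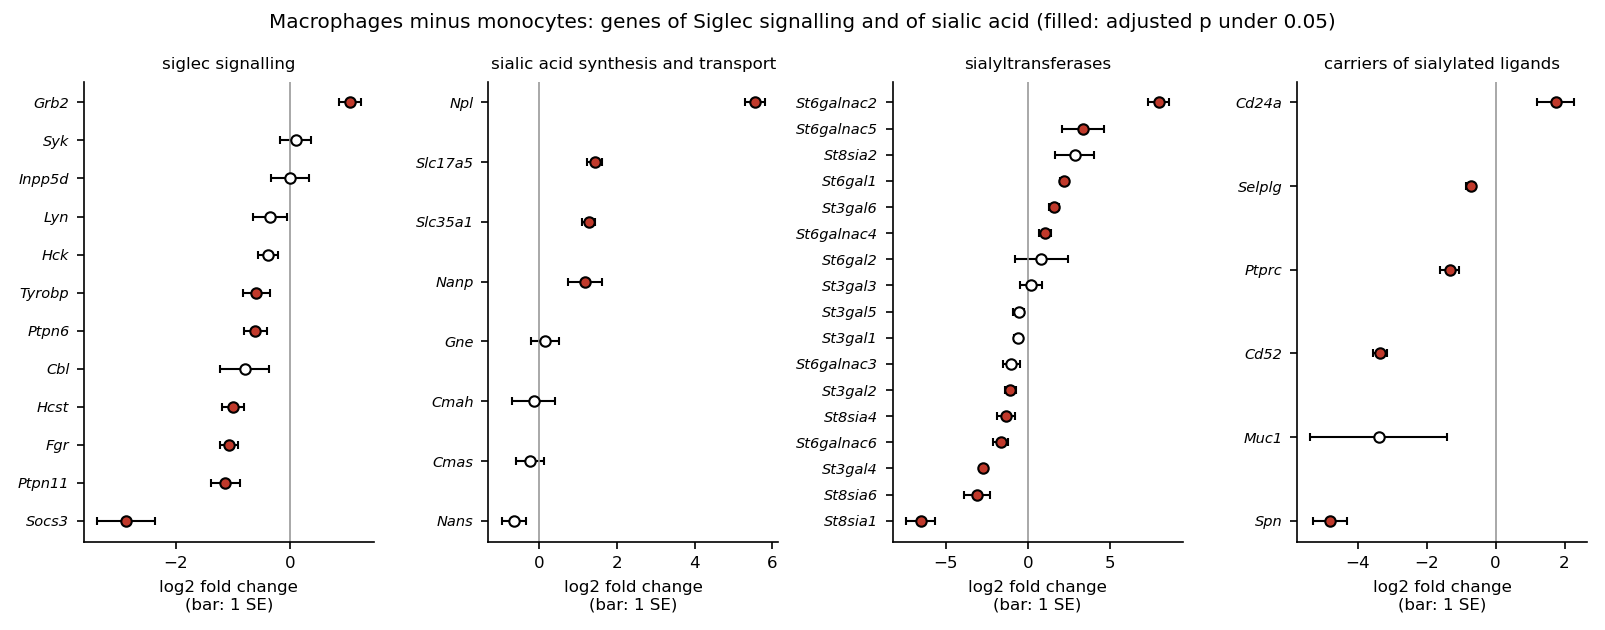
Log2 fold change (macrophages minus monocytes, horizontal axes that differ between panels, bars 1 SE) of genes of siglec signalling, sialic acid synthesis and transport, sialyltransferases and carriers of sialylated ligands, ordered by size; filled points have a DESeq2 adjusted p under 0.05. Most filled signalling and carrier genes lie below 0, and the sialyltransferases lie on both sides. All 4 filled genes of the synthesis and transport panel, which include the breakdown gene Npl, lie above 0.

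Enzymes and transporters of sialic acid, the ligand, were next. Of 8 genes of its synthesis, transport and breakdown, 4 rose in macrophages and none fell (median log2 difference 0.67 against 0.08). The list mixes these processes, so its count does not speak for synthesis alone. The largest was Npl, the lyase that breaks down free sialic acid, at 76.7 to 133 TPM in macrophages and 0.707 to 3.64 TPM in monocytes (5.55 ± 0.26, SE; DESeq2 adjusted p = 1.97e-99). Slc17a5, the lysosomal exporter, was 1.42 ± 0.20 higher (1.98e-11) and Slc35a1, the Golgi carrier of activated sialic acid, 1.27 ± 0.17 (3.69e-12). Nanp, a phosphatase of the synthesis pathway, was 1.19 ± 0.43 higher (0.0208), though at most 2.22 TPM. Gne, the entry enzyme of the pathway, stood at 0.15 ± 0.36 (0.792). Nans, Cmas and Cmah did not pass either, so that Nanp alone of the synthesis enzymes did. Nans had 22.7 to 39.3 TPM in macrophages and 28.6 to 86.4 TPM in monocytes.

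Sialyltransferases, which set the linkage that siglecs tell apart, went both ways. Of 17 tested, 5 rose and 6 fell in macrophages. St6gal1, which makes the α2,6 linkage on N-glycans that CD22 binds, was at 16.3 to 58.2 TPM in macrophages and 6.31 to 10.6 TPM in monocytes (2.21 ± 0.26, SE; DESeq2 adjusted p = 7.02e-16). St6galnac2 rose by 8.00 ± 0.64 (3.94e-34), from at most 0.589 TPM in monocytes, St3gal6 by 1.62 ± 0.31 (1.53e-06) and St6galnac4 by 1.06 ± 0.35 (0.00948). St3gal4, an α2,3 sialyltransferase, was at 128 to 184 TPM in monocytes and 15.7 to 37.2 TPM in macrophages (-2.71 ± 0.15, 3.23e-70). St8sia1, St8sia6 and St6galnac6 also fell (-6.53, -3.12 and -1.66), the first from at most 1.06 TPM. Of 4 sialidases and O-acetyl enzymes tested, 1 rose, the sialic acid acetylesterase gene Siae (1.14 ± 0.17, 1.14e-10).

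Carriers of sialylated glycans were mostly lower in macrophages, 4 of 6, with 1 higher. Spn, which encodes CD43, fell by 4.81 ± 0.49 (SE; DESeq2 adjusted p = 2.56e-21), Cd52 by 3.36 ± 0.21 (6.07e-57), Ptprc by 1.33 ± 0.28 (1.55e-05) and Selplg by 0.73 ± 0.13 (4.91e-07). Cd24a, which encodes a ligand of Siglec-G, was 1.74 ± 0.53 higher (0.00412). It passed in eYFP- macrophages against Ly6Chi (2.29, 0.0116) and Ly6Clo monocytes (3.15, 0.000247), and in eYFP+ macrophages against neither (0.33, 0.810 and 1.19, 0.256), where its level overlapped that of Ly6Chi monocytes.

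Between eYFP+ and eYFP- macrophages 2 of the 47 tested genes of these 5 lists passed, or 4.26%, beside 2.07% of all genes, and both were lower in eYFP+ macrophages. Nothing is read from the count of 2 about the lists as such. St3gal5, which starts ganglioside synthesis, had 3.59, 2.47 and 2.89 TPM in eYFP+ and 18.2, 6.47 and 12.4 TPM in eYFP- macrophages (-2.05 ± 0.46, SE; DESeq2 adjusted p = 0.00135). Spn had 0.0381, 0.590 and 0.0544 TPM in eYFP+ and 2.61, 4.50 and 3.18 TPM in eYFP- macrophages (-3.90 ± 0.71, 1.35e-05). The groups did not overlap for either gene. In edgeR, where 64 of 19189 genes passed against 439 in DESeq2, neither did, at -3.92 (adjusted p = 0.0593) for Spn and -2.06 (0.0866) for St3gal5. St3gal5 also lost its call without eYFP- replicate 1 (-1.57, 0.0511), and Spn was at -6.14 (1.71e-17) without eYFP+ replicate 2 and at -1.86 (0.00926) in limma on log2(TPM + 1). Monocyte and neutrophil precursor markers moved with the same groups. The chemokine receptor gene Ccr2 fell by 1.80 on the log2 scale in eYFP+ macrophages (DESeq2 adjusted p = 0.00265), and 4 of 8 neutrophil and precursor markers were lower and none higher. The last list summed to 29.2 to 62.7 TPM in eYFP+ and 195 to 1254 TPM in eYFP- macrophages. Erythroid markers did so too, at 6939 to 11869 TPM in eYFP+ and 17503 to 28474 TPM in eYFP- macrophages, with Klf1 as the 1 of 6 that passed. Their part in the difference of Spn and St3gal5 was not tested. Cd24a had 58.5 to 61.2 TPM in eYFP+ and 233 to 243 TPM in eYFP- macrophages, without overlap (-1.96 ± 0.75, adjusted p = 0.220).

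Between the monocyte subsets 5 of the 47 genes were lower in Ly6Chi monocytes and 1 was higher, beside 5.08% lower and 3.74% higher of all genes, and nothing is read from these counts about the lists as such. The lower ones were St3gal5 (-3.09 ± 0.46, SE; DESeq2 adjusted p = 3.55e-09), St6galnac3 (-3.03 ± 0.74, 0.00133), St3gal6 (-1.59 ± 0.44, 0.00652), Npl (-1.51 ± 0.38, 0.00224) and Hcst (-0.86 ± 0.27, 0.0219). The 1 gene that was higher, St8sia2, was at most 0.162 TPM in any monocyte library.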

How the data were processed

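Polyadenylated RNA was sequenced in 12 libraries. The authors deposited counts, whole read pairs per gene by featureCounts on GRCm39, after demultiplexing with bcl2fastq 2.20.0.422, as well as TPM values (counts per length, scaled to a sum of 1000000) and variance-stabilised values close to log2 made with DESeq2. Pairs that could belong to several genes were not counted, so that reads of genes with similar copies may be missing, and the use of strand is not given in the sources used here. Amplified cDNA without molecular identifiers was used.

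Groups came from the labels. Members and gene lists were chosen with earlier results of these data known. Counts were tested with DESeq2 1.42.0 (R 4.3.3): all 12 libraries were fitted together by group alone, and 7 contrasts were read from it by Wald tests, with Benjamini-Hochberg adjusted p under 0.05 over all genes tested. Named from each list were the lowest adjusted p in each direction, at most 4, plus Tyrobp, Ptpn6, Inpp5d and Mag; others were chosen after their values were seen. Likeness used genes with a mean of at least 50 normalized counts. GC content and spans came from GENCODE M21 (GRCm38), promoters from RefSeq.

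Alternatives were edgeR 4.0.16, limma 3.58.1 on log2(TPM + 1) and log2(TPM + 0.1), TMM factors, a minimum of 10 counts in 3 libraries, no filtering, no Cook's cutoff, a GC and length correction, fewer libraries and the replicate number as a block. Deviations from group means over 2000 genes correlated in same-numbered macrophage pairs (0.152 to 0.456), which by the rule used pairs them, though the labels do not say that they share a mouse, and not in all monocyte pairs (-0.0111 to 0.307). Same-numbered pairs of a macrophage and a monocyte library ran from -0.654 to 0.442. The rule set no libraries of different number beside these and so cannot show that libraries are paired. The tests were tried on simulated counts.

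Some marker genes are not reported here.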

Additional observations from a re-analysis of the deposited data

How the results depend on the processing

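For single siglecs under 13 alternatives, 587 values kept direction and call, 16 lost the call, 10 gained it and 3 turned. With 1 library left out, 315 kept both, 12 lost the call, 3 gained it and 6 turned. The number of siglecs that passed between the monocyte subsets, 2 in the main test, was 0 with edgeR, 1 with limma on log2(TPM + 1), 1 on log2(TPM + 0.1), and 1 to 3 with 1 library left out. For eYFP- macrophages minus Ly6Clo monocytes it was 5, and 3 with edgeR, as Cd22 was at adjusted p = 0.0510 and Siglecf at 0.126. The cause of these changes was not tested. With the replicate block the counts were 0 between the macrophage groups, 2 between the monocyte subsets and 5 for macrophages minus monocytes, and with the block and the GC correction together, chosen after seeing the data, they were 0, 2 and 5; no call of a siglec changed under the block in any of the 7 comparisons.

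Directions turned only for genes that had not passed. Siglecf between the monocyte subsets (0.37) was -0.20 without the 2 libraries low in GC-rich transcripts and -0.20 to 1.88 with 1 library left out. Cd33 between macrophages and monocytes (0.20) was -0.0069 without those 2 libraries. Siglech between macrophages and monocytes (0.38) ran from -0.44 to 1.11 with 1 library left out. For Siglech in eYFP+ macrophages minus Ly6Clo monocytes (-0.59) the replicate block gave 0.19 and leaving out 1 library -1.52 to 0.85, and in eYFP- macrophages minus Ly6Chi monocytes (1.36) leaving out 1 library gave -0.31 to 2.52. Few counts limit Siglech, and 3 libraries per group limit every comparison. Leaving out the 2 libraries high in eosinophil transcripts was also chosen after seeing the data.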
